A study of Mus musculus with 5 samples.

Results

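Cassette exons of Pecam1 and 4 other genes of the blood vessel lining, Egfl7, Mmrn2, Robo4 and Emcn, and of Vegfa, whose product acts on that lining, were followed in the left ventricle of diabetic and control mice. Every exon of these genes in the deposited splicing tables was taken, which gave 9 exons of the 6616 in the tables: 3 in Pecam1, 2 in Vegfa and 1 in each of the other genes. The gene was read from the tables for 6 of the 9 exons. For the remaining 3, the Pecam1 57-nt and 23-nt exons and the Vegfa 72-nt exon, it was found in the mouse annotation from the exon length together with the 2 intron lengths beside it. All 9 exons were listed in all 6 tables and all 9 had enough reads to be tested.

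The mice were C57BL/6, and RNA came from the left ventricle of the heart at 12 weeks of age. The STZ group (3 samples) had been injected intraperitoneally at 8 weeks of age, on 5 days, with streptozotocin at 70 mg/kg, a toxin that destroys the insulin-producing beta cells. The Control group (2 samples) had been given the citrate buffer alone on the same schedule. Each table compared 1 library of a pair with 1 library of a trio, so the libraries were assigned to the groups by these numbers alone and are called STZ A, B and C and Control A and B. The library codes form 2 naming series that divide exactly as the groups do, so the handling behind those series and streptozotocin treatment cannot be told apart. Nothing in the labels says whether the samples of a group came from separate mice, and p-values measure only the spread between these libraries.

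The inner surface of every vessel is a sheet of endothelial cells, and in the heart most of it belongs to capillaries running beside the cardiomyocytes. PECAM-1 (CD31) joins neighbouring endothelial cells and carries tyrosines in its cytoplasmic tail that recruit phosphatases when phosphorylated. VEGF-A, which in the heart is made largely by cardiomyocytes, is the main growth signal for endothelium, and splicing decides how tightly it binds the matrix. EGFL7, multimerin-2, ROBO4 and endomucin are endothelial products of the matrix and the cell surface, and the Egfl7 gene also holds the endothelial microRNA miR-126 in an intron.

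Inclusion was given by the authors as Psi, the estimated share of transcripts that hold the exon, from 0 to 1. Beside it stand the reads of 4 classes: those that fit only the isoform with the exon (inclusion-only), only the isoform without it (exclusion-only), both, or neither. Reads that fit at least 1 isoform numbered 6741244 to 7676251 in the STZ libraries and 9231777 to 11431749 in the Control libraries over all exons. The level of an event is its count of such reads, given in RPM (reads per 1000000 such reads). It is a proxy for the RNA around that exon, not a gene expression value, and levels are compared between libraries, not between genes. In whole ventricle, a change in the number of endothelial cells and a change of RNA per cell cannot be told apart.

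Inclusion fell in 3 of the 9 exons in STZ hearts and rose in none, at an adjusted p under 0.05 in limma on logit Psi. These were the Pecam1 57-nt, the Egfl7 65-nt and the Vegfa 132-nt exon. Of all 4769 exons tested, 10.1% were called lower in STZ, 4.84% higher and 15.0% in either direction. The median logit difference of the 9 exons was -0.98, against -0.22 over all tested exons. The STZ and Control libraries did not overlap in Psi for 6 of the 9, where the share over all exons was 42.9%. The authors' own statistic was read too, with cut-offs applied here. A Psi difference of 0.20 or more and a Bayes factor of 10 or more were asked for in each of the 6 deposited comparisons. By this rule 3 of 9 exons passed, against 3.22% of the exons listed in all tables. Those 3 were the Pecam1 57-nt, Egfl7 65-nt and Vegfa 72-nt exons. The genes were chosen with earlier results of these data known. The values over all exons therefore stand beside those of the 9 as a description, and whether the set differs from other exons was not tested.

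**Figure D1:**
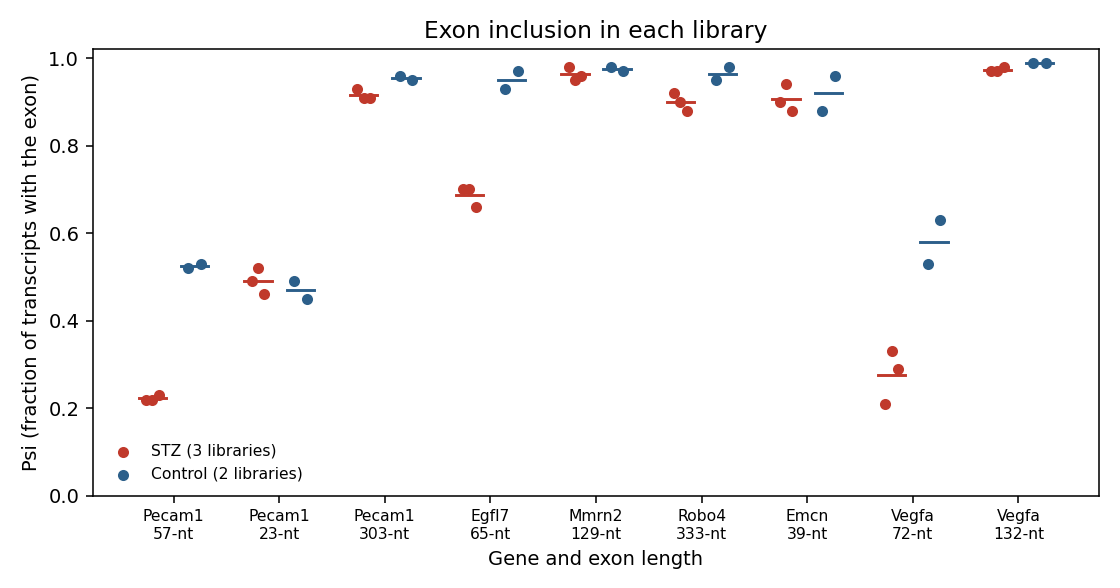
Psi of the 9 exons in each library (y axis, share of transcripts with the exon, 0 to 1), with 3 STZ points left of 2 Control points for each exon and a line at each group's mean. The Pecam1 57-nt exon stands at 0.22 to 0.23 in STZ and 0.52 to 0.53 in Control, while the Pecam1 23-nt exon lies between 0.45 and 0.52 in every library. Psi of the 23-nt exon is a share among transcripts with the 57-nt exon only.

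The exon of Pecam1 that changed encodes part of the cytoplasmic tail, and it was skipped more often in STZ hearts. It is 57 nt long and lies at mm9 chr11:106533056-106533112 on the minus strand, between introns of 7750 and 16579 nt. The longer intron holds the 23-nt exon described below. Transcripts with that 23-nt exon match none of the isoforms of this event, so its Psi is not a share of all Pecam1 transcripts. Reads that fitted neither isoform were 32.1% to 32.6% of the event's reads in STZ and 37.7% to 38.0% in Control. In an annotated transcript it is exon 14 of 15 and adds 19 codons in frame. The tyrosine it encodes belongs to one of the inhibitory motifs (ITIMs) through which PECAM-1 binds the phosphatase SHP-2. The sequence is shown with that of the shorter exon that can follow it in the tail, to place the tyrosine codons (capitals). Both are from the GENCODE M21 transcripts, minus strand, with GRCm38 positions chr11:106671742-106671798 and chr11:106662002-106662024.
Pecam1 57-nt exon: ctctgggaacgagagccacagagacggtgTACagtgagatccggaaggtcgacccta
Pecam1 23-nt exon: atctcatggaaaacagaTACtct

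Psi of the Pecam1 57-nt exon was 0.22, 0.22 and 0.23 in STZ A, B and C, against 0.52 and 0.53 in Control A and B. Both groups were tight and lay far apart. The means were 0.223 ± 0.00577 in STZ (SD, n = 3) and 0.525 ± 0.00707 in Control (SD, n = 2), and the logit difference was -1.35 ± 0.03 (SE, adjusted p = 0.00118). The call held in all 5 fits that left out 1 library, with adjusted p from 0.00688 to 0.0141. Only 4.32% of the tested exons had a Psi difference at least as large. In the authors' deposited table the differences ran from -0.31 to -0.29 (STZ minus Control), and the lowest Bayes factor was 8.8e+225.

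The reads behind this Psi moved unequally. Reads that fit only the isoform without the 57-nt exon numbered 420, 527 and 557 in STZ A, B and C, against 126 and 145 in Control A and B. Reads that fit only the isoform with it numbered 340, 437 and 512 in STZ, against 416 and 469 in Control, so the libraries of both groups overlap. In RPM, exclusion-only reads were 5.15-fold higher in STZ (log2 difference 2.37 ± 0.22, adjusted p = 0.000187), and 20.6% of all exons with such reads were called higher. Inclusion-only RPM differed by a log2 value of 0.43 ± 0.23, which did not pass (adjusted p = 0.15); without STZ A it did (adjusted p = 0.0051). Inclusion-only reads made up 44.7%, 45.3% and 47.9% of the reads that tell the isoforms apart in STZ, with 95% Wilson intervals between 41.2% and 50.9%. In Control they made up 76.8% and 76.4%, with intervals between 72.9% and 80.1%. These shares are higher than Psi, but the intervals of the groups stay apart as Psi does. The intervals cover counting error only.

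The 23-nt exon of Pecam1 lies at mm9 chr11:106523316-106523338 and is exon 15 of 16 in an annotated transcript. Its length is no multiple of 3, so it changes the end of the protein: the reading frame has 727 codons with it and 716 without it. The exon before it in this event is the 57-nt exon. Transcripts that skip the 57-nt exon match neither isoform, so Psi here holds only among transcripts with that exon. Reads that fitted neither isoform were 29.7% to 30.0% of the event's reads in STZ and 36.1% to 36.6% in Control. Psi was 0.49, 0.52 and 0.46 in STZ and 0.49 and 0.45 in Control. The groups overlap, and the logit difference of 0.08 ± 0.10 did not pass (adjusted p = 0.671). The raw read share and Psi differ for this exon, since inclusion-only reads averaged 77.9% ± 3.34 of the informative reads in STZ and 66.3% ± 2.52 in Control. Its inclusion-only RPM rose 2.41-fold in STZ (adjusted p = 0.00215, 17.5% of all exons called higher), and exclusion-only RPM differed by a log2 value of 0.42 ± 0.27 (adjusted p = 0.238). This event and that of the 57-nt exon share the long last exon, and most of their reads are the same reads.

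The 303-nt exon of Pecam1 (mm9 chr11:106558366-106558668) encodes 101 codons of the extracellular part, where the immunoglobulin-like domains of the protein lie. Psi was 0.93, 0.91 and 0.91 in STZ and 0.96 and 0.95 in Control. The groups did not overlap, but the logit difference of -0.66 ± 0.13 did not pass (adjusted p = 0.0566; 0.0477 with array weights). Both kinds of reads rose in STZ, inclusion-only RPM 2.96-fold (adjusted p = 0.000405) and exclusion-only RPM 4.60-fold (adjusted p = 0.000684).

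**Figure D2:**
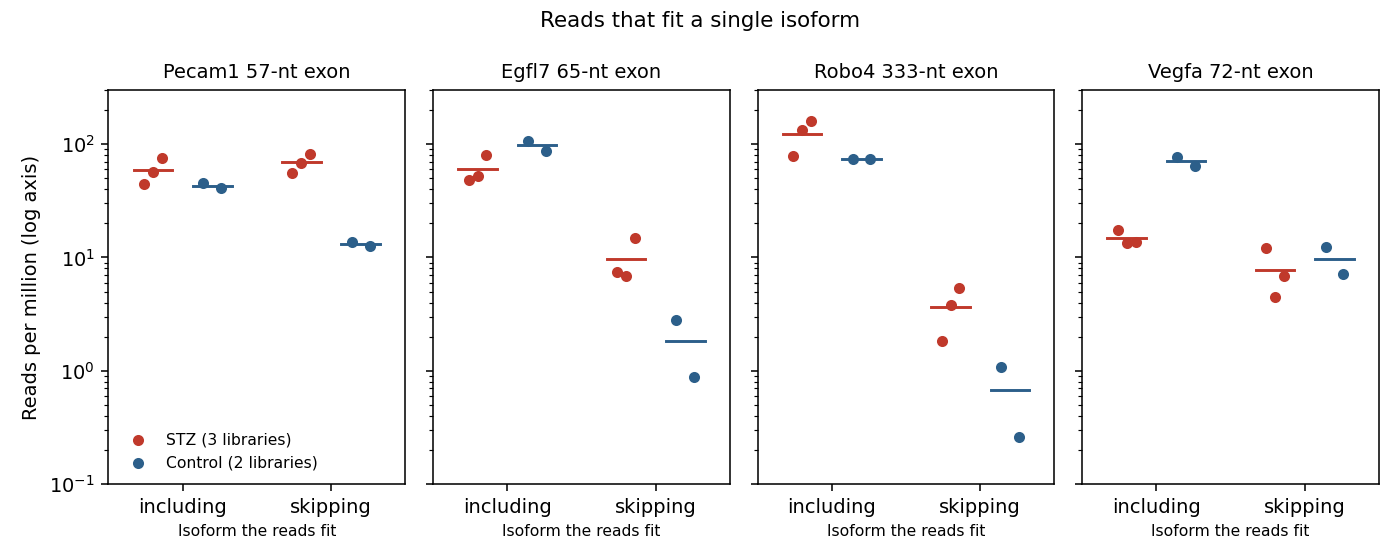
Reads that fit only the isoform with the exon (including) or only the one without it (skipping), in RPM, on a log axis, for 4 exons, with STZ points left of Control points and a line at each group's mean. Pecam1 57-nt skipping reads lie at 55.3 to 82.6 RPM in STZ and 12.7 to 13.6 in Control, whereas for the Vegfa 72-nt exon it is the including reads that stand apart, at 13.4 to 17.4 in STZ and 64.6 to 77.4 in Control.

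EGFL7 is a secreted matrix protein of endothelial cells that guides the formation of vessel tubes. Its 65-nt exon was skipped more often in STZ. It lies at mm9 chr2:26447184-26447248 on the plus strand, between introns of 600 and 389 nt, and is exon 8 of 10 in an annotated transcript. Because 65 is no multiple of 3, skipping shifts the frame: the annotated coding sequence has 265 codons before its stop, and the skipped form would have 233, with the new stop 37 codons past the junction. The stop lies 8 nt before the last exon junction. Mir126a lies in the 600-nt intron just upstream of this exon, 234 nt from the intron's end. The exon (GENCODE M21, GRCm38 chr2:26591664-26591728, plus strand) and the mature microRNA (RefSeq, GRCm38.p6 chr2:26591402-26591423, plus strand, seed of bases 2 to 8 in capitals) are shown because they stand side by side in the gene; the level of the microRNA was not measured.
Egfl7 65-nt exon: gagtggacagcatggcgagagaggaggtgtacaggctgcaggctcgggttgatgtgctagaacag
mmu-miR-126a-3p: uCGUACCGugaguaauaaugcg

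Psi of the Egfl7 65-nt exon was 0.70, 0.70 and 0.66 in STZ A, B and C, against 0.93 and 0.97 in Control A and B. All 3 STZ libraries lay below both Control libraries. The means were 0.687 ± 0.0231 in STZ and 0.95 ± 0.0283 in Control (SD, n = 3 and 2), and the logit difference was -2.25 ± 0.31 (adjusted p = 0.0285). The call rests on all 3 STZ libraries: without STZ A, B or C the adjusted p was 0.0862, 0.098 or 0.102, and without Control A or B it was 0.0198 or 0.03. The authors' deposited table gives differences from -0.31 to -0.23 and Bayes factors of at least 1.82e+37.

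Exclusion-only reads of Egfl7 numbered 56, 53 and 100 in STZ, against 26 and 10 in Control. Inclusion-only reads numbered 363, 398 and 540 in STZ, against 992 and 1004 in Control. In RPM, the first were 5.65-fold higher in STZ (log2 difference 2.50 ± 0.51, adjusted p = 0.00505; 0.0572 without Control B). The second were 0.601-fold as high as in Control (log2 difference -0.73 ± 0.24, adjusted p = 0.0317), a direction called for 29.6% of all exons. That call was lost without Control A (adjusted p = 0.222), Control B (0.0905) or STZ B (0.1). Between 74.9% and 78.0% of all Egfl7 event reads in STZ and 81.1% and 81.3% in Control fitted neither isoform.

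Multimerin-2, encoded by Mmrn2, is an endothelial matrix protein that binds VEGF-A. Its 129-nt exon (mm9 chr14:35209351-35209479, 43 codons) was almost always included. Psi was 0.98, 0.95 and 0.96 in STZ and 0.98 and 0.97 in Control, which overlap (logit difference -0.35 ± 0.36, adjusted p = 0.617). No library held more than 5 exclusion-only reads of it. The estimate turned positive when the read share replaced Psi (1.19, adjusted p = 0.19).

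ROBO4 is a receptor of the roundabout family that stabilizes the endothelial barrier. Its 333-nt exon (mm9 chr9:37210140-37210472) is exon 2 of 18 and adds 111 codons of the extracellular part. Psi was 0.92, 0.90 and 0.88 in STZ and 0.95 and 0.98 in Control. The groups did not overlap, but the logit difference of -1.21 ± 0.35 did not pass (adjusted p = 0.114). Exclusion-only reads numbered 14, 29 and 36 in STZ, against 10 and 3 in Control, and in RPM they were 5.78-fold higher in STZ (log2 difference 2.53 ± 0.64, adjusted p = 0.0138). That call was lost without Control B (adjusted p = 0.127) or STZ C (0.0604), and inclusion-only RPM did not pass (0.67 ± 0.27, adjusted p = 0.0741; 3.7e-05 without STZ A). Reads that fitted neither isoform were 34.9% to 37.3% of the event's reads in STZ and 20.2% to 22.4% in Control.

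Endomucin, encoded by Emcn, is a sialomucin of the endothelial surface found mainly on capillaries and veins. Its 39-nt exon (mm9 chr3:137066948-137066986, 13 codons) had Psi of 0.90, 0.94 and 0.88 in STZ and 0.88 and 0.96 in Control. The groups overlap, and the logit difference was -0.27 ± 0.48 (adjusted p = 0.79). Informative reads numbered 69 to 122 in the STZ libraries and 147 to 166 in the Control libraries, of which 1 to 8 in each library were exclusion-only.

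VEGF-A was the ligand among the 6 genes, and both of its cassette exons encode the basic stretches that hold the secreted protein on heparan sulphate. The 72-nt exon (mm9 chr17:46159226-46159297, 24 codons) separates the matrix-bound VEGF188 from VEGF164. The 132-nt exon (mm9 chr17:46157940-46158071, 44 codons) is in VEGF164 and lacking from the freely diffusing VEGF120. Of the 23 whole codons of the 72-nt exon, 12 encode lysine or arginine, and the 132-nt exon holds 9 such codons and 7 for cysteine. The lysine and arginine codons are in capitals (GENCODE M21, minus strand, GRCm38 chr17:46022277-46022348 and chr17:46020991-46021122).
Vegfa 72-nt exon: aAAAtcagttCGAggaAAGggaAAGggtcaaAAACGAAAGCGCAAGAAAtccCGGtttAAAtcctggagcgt
Vegfa 132-nt exon: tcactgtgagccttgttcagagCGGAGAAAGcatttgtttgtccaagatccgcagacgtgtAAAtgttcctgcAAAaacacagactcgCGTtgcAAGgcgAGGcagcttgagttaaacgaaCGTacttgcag

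Psi of the Vegfa 72-nt exon was 0.21, 0.33 and 0.29 in STZ A, B and C, against 0.53 and 0.63 in Control A and B. The libraries of each group spread by about 0.1 and the groups did not overlap. The means were 0.277 ± 0.0611 in STZ and 0.58 ± 0.0707 in Control (SD), and the logit difference of -1.30 ± 0.26 came just short of the threshold (adjusted p = 0.0542). It passed with the read share in place of Psi (adjusted p = 0.0368) and with Psi clipped at 0.001 (0.0493). The authors' deposited table gives differences from -0.42 to -0.2 and Bayes factors of at least 7.17e+06.

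Reads with the Vegfa 72-nt exon fell in STZ, and those without it did not pass the test. Inclusion-only reads numbered 132, 103 and 92 in STZ, against 715 and 738 in Control. In RPM they were 0.209-fold as high as in Control (log2 difference -2.26 ± 0.20, adjusted p = 0.00013). Exclusion-only reads numbered 92, 34 and 46 in STZ, against 113 and 82 in Control (log2 difference of RPM -0.38 ± 0.42, adjusted p = 0.502; without STZ A 0.0447). Most reads of this event, 95.3% to 97.0% in STZ and 93.6% to 94.0% in Control, fitted neither isoform, so Psi rests on 137 to 224 informative reads in STZ and 820 to 828 in Control.

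The Vegfa 132-nt exon was included in nearly every transcript that matches an isoform of its event. The intron before it in this event, of 2942 nt, holds the 72-nt exon. Transcripts with the 72-nt exon match neither isoform, so Psi here is not a share of all Vegfa transcripts. Reads that fitted neither isoform were 28.6% to 36.7% of the event's reads in STZ and 39.0% to 41.0% in Control. Psi was 0.97, 0.97 and 0.98 in STZ and 0.99 in both Control libraries. The difference of -0.0167 passed the test on the logit scale (-0.98 ± 0.16, adjusted p = 0.0388), where values near 1 are stretched; 66.8% of tested exons differed by at least as much in Psi. The call was lost without Control A (adjusted p = 0.161), Control B (0.17), STZ A (0.102) or STZ B (0.114), with the read share (0.0804), and with Psi clipped at 0.05, where the difference is 0. Inclusion-only RPM fell to 218, 163 and 167 in STZ, against 319 and 317 in Control (0.569-fold, adjusted p = 0.00418; 0.051 without Control A). There were 8 to 19 exclusion-only reads in STZ libraries and 14 to 16 in Control libraries (log2 difference of RPM 0.25 ± 0.45, adjusted p = 0.705).

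The reads of the events moved in opposite directions in Pecam1, which rose in STZ, and Vegfa, which fell. Of the 9 events, 4 were called higher and 2 lower, while over all 5901 events 18.0% were called higher, 28.6% lower and 46.6% in either direction. The higher ones were the Pecam1 events and Mmrn2, and the lower ones were the Vegfa events. Events of the same gene are not separate results, and the Pecam1 57-nt and 23-nt events share most of their reads. The groups did not overlap for 7 of 9, against 67.4% of all events. The median log2 difference over all events was -0.17, and with each library centred on its median the split of calls over all events was 1386 higher and 1414 lower (49.5% higher) in place of 1061 and 1687 (38.6%). Every direction given for Pecam1, Mmrn2, Robo4 and Vegfa below was the same with that centring.

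The Pecam1 57-nt event had 1663, 2130 and 2771 RPM in STZ A, B and C, against 739 and 640 in Control A and B. Every STZ library was above both Control libraries, and STZ C was the highest. The level was 3.11-fold higher (log2 difference 1.64 ± 0.20, adjusted p = 0.000537), and this held in all 5 fits without 1 library. The 303-nt event, which lies elsewhere in the gene, had 1173, 1379 and 1844 RPM in STZ and 494 and 484 in Control, which is 2.94-fold higher in STZ (1.56 ± 0.19, adjusted p = 0.000449). The 23-nt event gave 1.65 ± 0.20 (adjusted p = 0.000513).

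Among the other 4 endothelial genes, the level of 1, Mmrn2, passed the test. Mmrn2 had 84.3, 127 and 189 RPM in STZ and 66.5 and 68.5 in Control, and rose 1.88-fold (log2 difference 0.91 ± 0.30, adjusted p = 0.0346). That call was lost without Control A (adjusted p = 0.153), Control B (0.134), STZ B (0.0866) or STZ C (0.058), with informative reads alone (0.0654), and with all read classes (0.216). Robo4 had 81.6, 141 and 172 RPM in STZ and 78.2 and 75.9 in Control, a difference of 0.70 ± 0.28 that did not pass (adjusted p = 0.0726). It passed with all read classes (0.0297), with median centring (0.0456) and without STZ A (0.000126). In both genes STZ A was the STZ library nearest to Control. Egfl7 had 81.2, 94.4 and 142 RPM in STZ and 142 and 111 in Control, which overlap (-0.29 ± 0.24, adjusted p = 0.357). The Egfl7 difference was -0.63 with all read classes (adjusted p = 0.0795) and -0.65 with informative reads alone (0.0634). With median centring it was -0.12 (0.731). Emcn had 25.8, 14.1 and 26.6 in STZ and 24.8 and 18.6 in Control, which overlap too (-0.01 ± 0.31, adjusted p = 0.976); its sign turned with median centring.

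The Vegfa 72-nt event had 33.3, 20.7 and 21.8 RPM in STZ, against 96.9 and 75.1 in Control. It fell to 0.29-fold of Control (log2 difference -1.79 ± 0.24, adjusted p = 0.000805), and this held in all 5 fits without 1 library. Most of that level in Control A and B was inclusion-only reads (77.4 and 64.6 RPM), so the level and Psi of this event share reads and are not separate results. With all 4 read classes the log2 difference was -1.15 (adjusted p = 0.00432). The 132-nt event, which takes in the long last exon, had 1784, 1386 and 1338 in STZ and 2517 and 2184 in Control. It fell to 0.636-fold (log2 difference -0.65 ± 0.16, adjusted p = 0.00958; 0.116 without Control A).

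**Figure D3:**
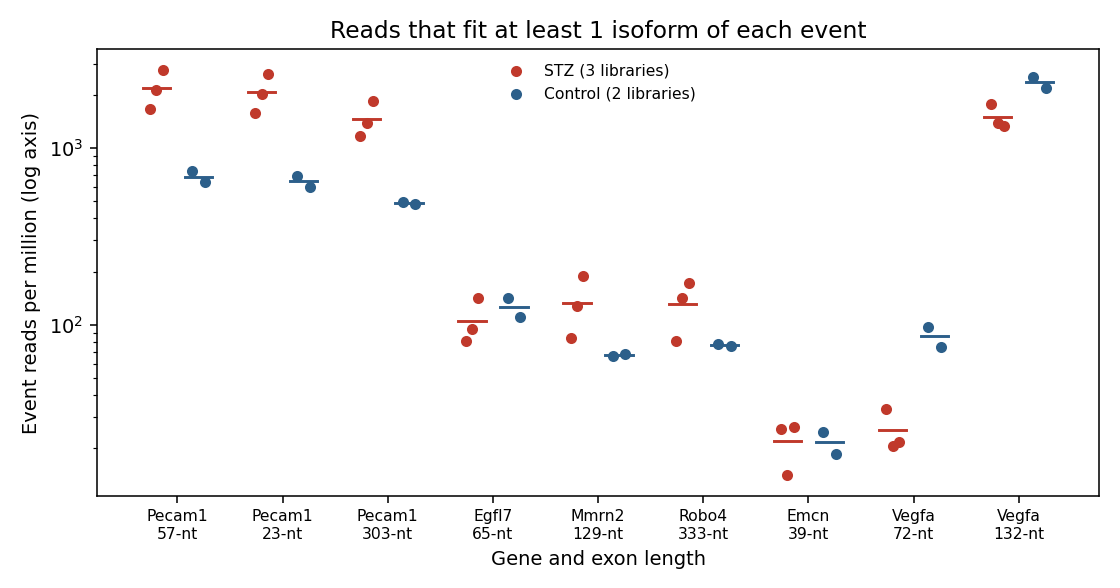
Event RPM in each library (log axis) for the 9 exons, with STZ points left of Control points and a line at each group's mean. The 3 Pecam1 events lie at 1173 to 2771 in STZ and 484 to 739 in Control, the Vegfa events are lower in STZ, and Egfl7 and Emcn overlap.

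**Figure D4:**
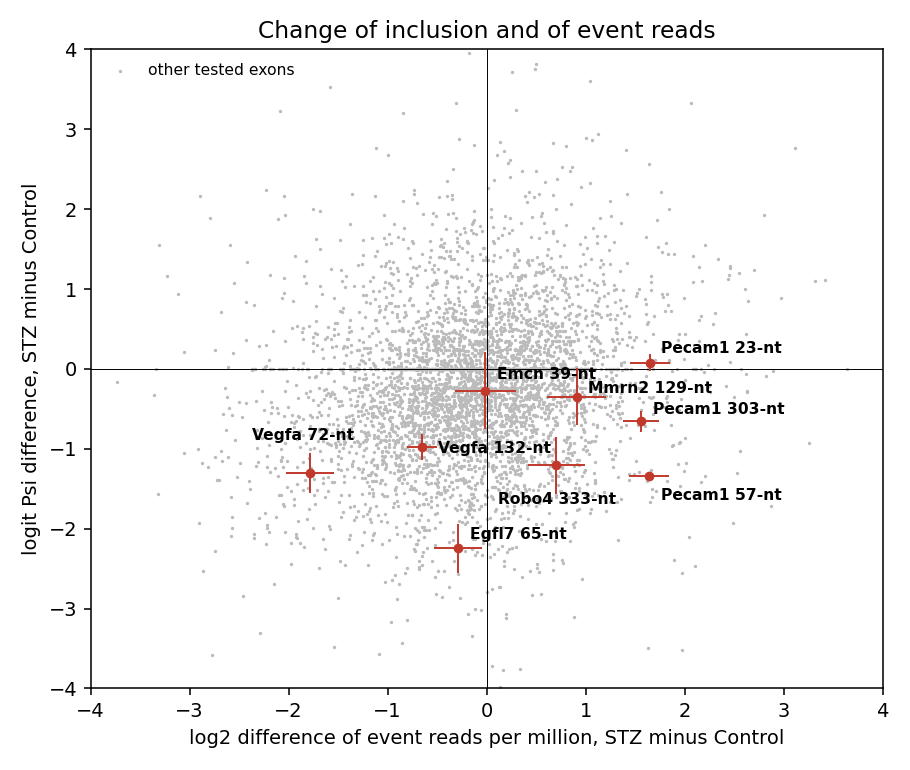
Logit Psi difference (y axis) against log2 difference of event RPM (x axis), both STZ minus Control, for the 9 exons (red, with SE bars) and the other exons tested for both (grey; 4 lie outside the range of -4 to 4). The Pecam1 57-nt exon lies at -1.35 in Psi and 1.64 in level, and the Vegfa 72-nt exon has a like Psi difference, -1.30, at a level difference of -1.79.

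Markers of other cells were read as summed event RPM, as far as the tables hold an exon of a marker gene. Of 12 endothelial markers 5 had an exon, all of them members, and they summed to 4688 to 7762 in STZ and 2000 to 2242 in Control. Most of that sum came from the 3 Pecam1 events, while Egfl7 and Emcn did not pass the level test. The Pecam1 57-nt and 23-nt events share most of their reads, so the sum counts those reads more than once. None of the other 7 markers of the list had an exon. The smooth muscle list had 1 gene of 6, Myh11, at 178 to 302 in STZ and 58.3 to 75.2 in Control. The cardiomyocyte list had 4 of 10 genes and summed to 60696 to 67200 in STZ and 128377 to 129773 in Control. Most of that gap lay in 1 event of Pln, the phospholamban gene, at 29039 to 38768 in STZ and 102117 to 102404 in Control; the Ttn 303-nt event had 18621 to 22141 in STZ and 19375 to 20707 in Control. Other events of the list were called higher in STZ, Tnnt2 9-nt (log2 difference 0.53 ± 0.11, adjusted p = 0.00511) and Ldb3 15-nt (0.67 ± 0.21, adjusted p = 0.0307), and a long exon of Ttn was called lower (-1.56 ± 0.31, adjusted p = 0.00457). Leukocyte markers, 3 of 6 genes, summed to 62.7 to 135 in STZ and 99.0 to 121 in Control, and fibroblast markers had no exon. Within the leukocyte list the Cd74 192-nt event was called lower in STZ (log2 difference -2.47 ± 0.46, adjusted p = 0.00318). The Cd68 461-nt and 434-nt events had differences of 0.52 ± 0.29 and 0.40 ± 0.31 and did not pass (adjusted p = 0.177 and 0.315). The cardiomyocyte sum and Myh11 moved with the levels of Pecam1 and Vegfa, and their part in those results was not tested; the leukocyte sums of the groups overlap.

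Among exons of other genes, the 5 nearest in Psi to the Pecam1 57-nt exon over the 5 libraries, by root mean square difference, were in Cyb561, Ptbp1, Cis4, Akap2 and Stau2. The Cyb561 279-nt exon was nearest, at 0.029, with Psi of 0.21, 0.18 and 0.19 in STZ and 0.55 and 0.53 in Control. The Ptbp1 78-nt exon, in the gene of a splicing repressor, followed at 0.0374, with 0.24, 0.18 and 0.18 in STZ and 0.52 and 0.58 in Control. For the Pecam1 303-nt exon, which had the most informative reads in the gene, the nearest 5 were in Yif1a, Carkd, Rbm6, Elp5 and Med16, at distances of 0.00775 to 0.011. Nearness was chosen on Psi itself and is given as a description.

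A wider set of 163 genes of endothelial biology, sorted into 9 lists by role, gave 51 tested exons in 33 genes. Inclusion was higher in STZ for 3 of the 51 exons and lower for 6, together 17.6%, close to the 15.0% of all tested exons. The median logit difference was 0, against -0.22 over all. By level, 16 of 52 events were called higher and 4 lower, where 18.0% of all events were called higher and 28.6% lower. In the list of junctions and adhesion, 2 of 12 exons fell and none rose. The Mcam 118-nt exon, in the gene of the adhesion molecule CD146, had Psi of 0.62, 0.59 and 0.59 in STZ and 0.77 and 0.82 in Control (adjusted p = 0.023). The Tjp1 240-nt exon, in the gene of the tight junction scaffold ZO-1, had 0.07, 0.05 and 0.05 in STZ and 0.17 in both Control libraries (adjusted p = 0.0209).

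Of 4 exons in the VEGF list, 1 fell, the 45-nt exon of Arnt, which encodes the partner of the hypoxia-inducible factors. Its Psi was 0.49, 0.58 and 0.53 in STZ and 0.80 and 0.82 in Control (adjusted p = 0.0185). Among BMP and TGF-beta receptor genes, 1 of 3 exons rose and 1 fell. The Tgfbr2 75-nt exon, in the gene of the type II receptor for TGF-beta, rose to 0.69, 0.68 and 0.69 in STZ, against 0.41 and 0.49 in Control (adjusted p = 0.0213). The Smad6 79-nt exon, in the gene of an inhibitory SMAD, averaged 0.00667 in STZ and 0.02 in Control (adjusted p = 0.0107), but 0.161 with the read share.

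In the guidance list 2 of 5 exons rose and none fell. The Sema3f 93-nt exon, in the gene of a secreted semaphorin, averaged 0.267 ± 0.0252 in STZ and 0.135 ± 0.0212 in Control (adjusted p = 0.0376; 0.0801 with the read share). The Enah 57-nt exon, in the gene of an actin regulator, averaged 0.0933 ± 0.0208 in STZ and 0.015 ± 0.00707 in Control (adjusted p = 0.0349). Among transcription factors 1 of 4 exons fell, that of Ets1 (261 nt), at 0.763 ± 0.0306 in STZ and 0.91 ± 0.0141 in Control (adjusted p = 0.0236). In the vessel stability list 1 of 15 fell, that of Krit1 (117 nt), the gene of a cerebral cavernous malformation protein, at 0.92 ± 0.0173 in STZ and 0.975 ± 0.00707 in Control (adjusted p = 0.0472). None of 5 Notch exons and none of 3 exons of capillary metabolism genes passed in Psi, and the angiopoietin and Tie list had no exon in the tables. The call of Smad6 held in all 5 fits without 1 library. With Psi clipped at 0.01, however, its value was 0.01 in every STZ library and 0.02 in both Control libraries. Leaving out a library could not change that difference, so those fits do not test it. The other calls depended on the libraries in the fit. Those of Arnt, Tgfbr2 and Mcam held in 2 of 5, and that of Tjp1 in 1. Those of Ets1, Sema3f, Enah and Krit1 held in none.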

How the data were processed

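RNA from whole left ventricle was sequenced by the authors with Illumina libraries. CASAVA 1.8.2, TopHat and the mm9 build are named in the submitters' processing notes; how they were used is not given in the sources used here. Each of the 6 deposited tables is a MISO comparison of skipped exons between 1 library and another, known by codes only. Which library was taken as Control and which as STZ rests on the group sizes alone. The authors deposited Psi as a fraction rounded to 2 decimals, the read counts of the 4 classes, and the Psi difference (first minus second library; turned round here). The Bayes factor is the ratio of evidence, difference over no difference, that the authors gave with each comparison. A library's values were the same in every table that held it. The 36 columns of intervals and assigned counts were not used.

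Psi was clipped to 0.01 to 0.99, put on the logit scale and fitted with limma 3.58.1 (R 4.3.3; eBayes with a trend on log2 mean informative reads, two-sided) over the 4769 exons with at least 10 informative reads (inclusion-only plus exclusion-only) in every library. Benjamini-Hochberg adjustment ran over all of them. Levels were fitted with limma as log2 RPM (reads per 1000000 reads that fit at least 1 isoform) with a pseudocount of 0.5 reads, over 5901 events with a mean of at least 10 reads; such folds understate changes of low events. The fits of inclusion-only (4491 exons) and exclusion-only reads (2246 exons) were added after the data were seen. Alternatives were other clips, read minimums, variance models, weights, pseudocounts and scalings, the read share in place of Psi, and leaving out each library. The scripts were tested on simulated data. Exon sequences were read from GENCODE M21 transcripts (GRCm38), and the microRNA from RefSeq. Of 3348 exons that had both an Ensembl gene in the files and a match by length, 97.6% gave the same gene.

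The members and the gene lists were chosen with earlier results of these data known. Every exon of the 6 genes is named; from the lists, every called exon is named, and the 5 exons nearest in Psi to each of 2 Pecam1 exons.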

Additional observations from a re-analysis of the deposited data

How the results depend on the processing

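No paired analysis was possible because the library columns carry no replicate numbers. With 1 library left out, the number of exons called in Psi was 282 to 467 (713 with all libraries), of the 9 described exons 1 to 2 (3 with all), of the endothelial lists 1 to 4 (9 with all), and of events with a changed level 1306 to 3534 (2748 with all). Without STZ A or without STZ B only the Pecam1 57-nt exon was called among the 9. With a Psi difference of at least 0.10, the rule applied here to the authors' statistic was met by 356 exons in place of 204. With Psi clipped at 0.05, 2 of the 9 exons and 6 exons of the lists were called; the remaining settings moved these counts by less than 1.5 times.

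The Psi call of the Pecam1 57-nt exon and the level calls of the 3 Pecam1 events and the Vegfa 72-nt event held under every alternative run. Signs turned in no fit that passed the test; the adjusted p was then 1 for Pecam1 23-nt Psi without Control B, 0.19 for Mmrn2 Psi with the read share, and 0.749 for Emcn Psi without Control B. For the Emcn level it was 0.662 with median centring, 0.998 with a pseudocount of 5 reads, 0.765 without Control A and 0.365 without STZ B. For Emcn inclusion-only reads it was 0.952 without Control A and 0.733 without STZ B. For exclusion-only reads it was 0.998 for Vegfa 72-nt without Control A and 0.983 for Vegfa 132-nt without STZ A. The cause was not tested. With 1 library left out the adjusted p reached down to 0.466 for Pecam1 23-nt Psi, 0.336 for Emcn Psi, 0.364 for Emcn inclusion-only reads, 0.0447 for Vegfa 72-nt and 0.43 for Vegfa 132-nt exclusion-only reads. Mmrn2 and Emcn had 8 or fewer exclusion-only reads in each library. In fits without 1 Control library, the other is assumed to vary like the STZ group.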
